A study of Danio rerio with 12 samples.

Results

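The subject is the difference between genotypes in the transcriptional response of 5-day-old zebrafish larvae to inorganic arsenic (iAs). For each gene the log2 response to iAs in as3mt mutant larvae was taken minus the log2 response in wild-type larvae, and this difference of responses is called the interaction. A positive interaction means that the mutant response was higher (a larger rise, a smaller fall, or a rise against a fall), and a negative one that it was lower. All 12 of 12 libraries entered the contrast, and 23096 of 32105 genes had enough counts to be tested.

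Each library was made from a pool of 10 whole larvae, and each of the 4 groups held 3 libraries. The treated mutant larvae lacked 8 bp of exon 3 on both copies of as3mt, a deletion that brings a premature stop, and were kept in 1 mM iAs. They came from an incross of homozygous F2 fish on the ABNYU background, and all mutant larvae had this same deletion. The untreated mutant larvae had the same genotype and no iAs. The treated wild-type larvae were of the TAB14 strain and received the same dose, and the untreated wild-type larvae were TAB14 without iAs. Exposure began at 6 hours post-fertilization, with 20 embryos per 10 mL well, and larvae were collected at 119 hours. Mutation and strain background go together in these groups, so their parts in the interaction cannot be told apart. The titles number the replicates with a suffix cl that the labels do not explain, and separate clutches are not stated, so a p-value speaks of the spread among these pools alone, and part of that spread may be technical.

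As3mt encodes arsenite methyltransferase, which adds methyl groups to trivalent arsenic in the liver and other tissues, with S-adenosylmethionine as the donor. Methylated arsenic leaves the body more readily than the inorganic form, while inorganic arsenite binds the thiol groups of proteins and disturbs their folding. Cells meet it with several known programmes. Nrf2 switches on glutathione synthesis and glutathione transferases, Hsf1 switches on chaperones, Atf4 and Atf3 act when translation is slowed, and AP-1 factors such as Fos are made within minutes of many kinds of stress.

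Library totals lay between 28909467 and 43759270 counts, and replicates varied by 9.0% (edgeR's common biological coefficient of variation). Within each group the libraries differed beyond counting noise, and 0 pairs of libraries were identical. Replicate 1 of the treated mutant larvae had the highest levels of several immediate early and chaperone genes, and several values are also given without that library. Levels are in scaled CPM, the count of a gene as a share of its library's total, and they are compared between groups for 1 gene and not between genes. Markers of the tissues of a whole larva were present, since all 57 hepatocyte, 55 enterocyte and 84 sarcomere genes matched had enough counts to be tested. AS3MT itself had 3.02, 3.31 and 3.51 CPM in treated mutant larvae, 9.21, 9.91 and 9.52 in untreated mutant larvae, 9.77, 9.73 and 9.93 in treated wild type and 14.3, 16.8 and 17.2 in untreated wild type. A count over the whole gene does not show the deletion, so it does not check the genotype.

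The response to iAs was larger in the mutant larvae for most genes that responded differently. A gene is called when its adjusted p is below 0.05 by edgeR's quasi-likelihood test with Benjamini-Hochberg adjustment over all genes tested. Of 23096 genes, 6984 had a called interaction (30.2%), of which 2842 were higher (12.3% of the genes tested) and 4142 lower (17.9%). At an unadjusted p below 0.05 there were 9365. The median absolute interaction among called genes was 0.65 on the log2 scale, and 1791 of them reached a 2-fold difference between the responses. Higher interactions made up 40.7% of the calls with the scaling used here (TMM), 46.1% with DESeq2 size factors (3208 of 6959) and 29.3% with library size alone (2110 of 7210). The median over all genes was -0.05, against -0.01 and -0.12 with those scalings, so list medians below are to be read against that shift.

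The single-genotype responses show the same difference in size. Exposure raised 7172 genes in the mutant (31.1%) and lowered 7523 (32.6%), against 5230 (22.6%) and 5124 (22.2%) in wild type. The median absolute log2 response over all genes was 0.48 in the mutant and 0.30 in wild type, and 70.5% of genes had the larger absolute response in the mutant. Changes that were called and reached 2-fold numbered 4747 in the mutant and 1695 in wild type. Across genes, which are not independent replicates, the responses of mutant and wild type had a Pearson r of 0.717.

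The called genes were sorted by what each genotype did. In 3013 (43.1% of the calls) both genotypes changed in one direction and the mutant changed more, with 1074 larger rises and 1939 larger falls. In 2794 (40.0%) the response was called in the mutant alone, with 1306 rises and 1488 falls. In 553 it was called in wild type alone. Both responses were called in opposite directions in 313 genes (1.36% of the genes tested), 141 of them rising in the mutant and falling in wild type and 172 falling in the mutant and rising in wild type. Both were called and smaller in the mutant in 210 genes (0.909% of the genes tested), 161 of them smaller rises and 49 smaller falls. Neither response was called in 101.

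**Figure D1:**
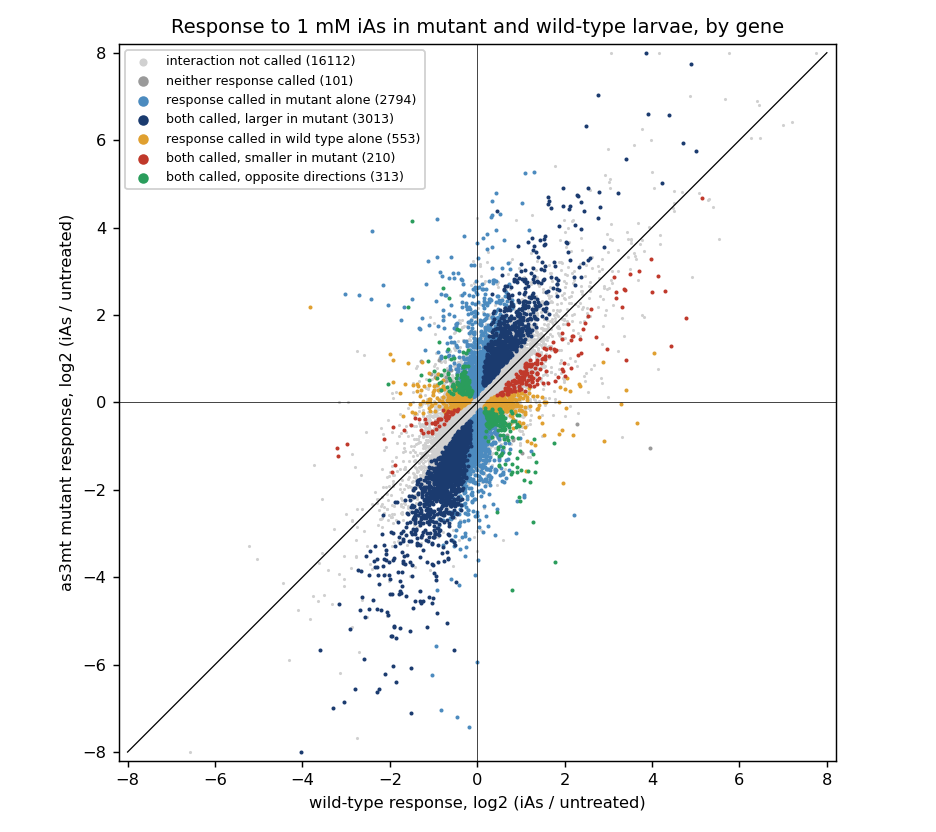
Log2 response to iAs of each gene tested, as3mt mutant on the y axis and wild type on the x axis, coloured by class. Genes without a called interaction are light grey. The number of genes in each class is given, and values beyond the axis limits are drawn at the limits. The diagonal marks equal responses. The 3013 genes changed in both genotypes and more in the mutant lie on its steeper side by the definition of their class.

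The interaction also equals the genotype difference under iAs minus the genotype difference without iAs. Mutant and wild type differed in 11641 genes under iAs (50.4%) and in 3110 genes without it (13.5%). Of the 6984 called interactions, 5444 (78.0%) had a genotype difference called under iAs alone, 756 (10.8%) in both conditions and 454 (6.50%) without iAs alone. A further 330 (4.73%) had neither genotype difference called.

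Functions were read from 49 gene lists, whose members make up 2006 of the genes tested, and each list is given by its counts and its median. The 5 lists with the lowest median interactions were intestinal enterocytes, with 36 of 55 genes called lower, the exocrine pancreas with 18 of 33, DNA replication and mitosis with 37 of 51, bile acid genes with 20 of 30, and erythrocyte and haem genes with 20 of 32, where 17.9% of all genes were called lower. The 6 lists with the largest shares called higher spanned stress, signalling and skin. The leptin and Stat3 list had 17 of 34 called higher, growth arrest and apoptosis 21 of 43, AP-1 and immediate early factors 21 of 44, hypoxia targets 20 of 44, skin ionocytes 20 of 45, and epidermal keratins and skin 23 of 52, where 12.3% of all genes were called higher. Skin ionocytes also had 26.7% called lower. Ranked by median interaction instead, the highest lists were leptin (0.68), cytokines (0.68), AP-1 (0.64), macrophage and neutrophil markers (0.48) and growth arrest (0.47).

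**Figure D2:**
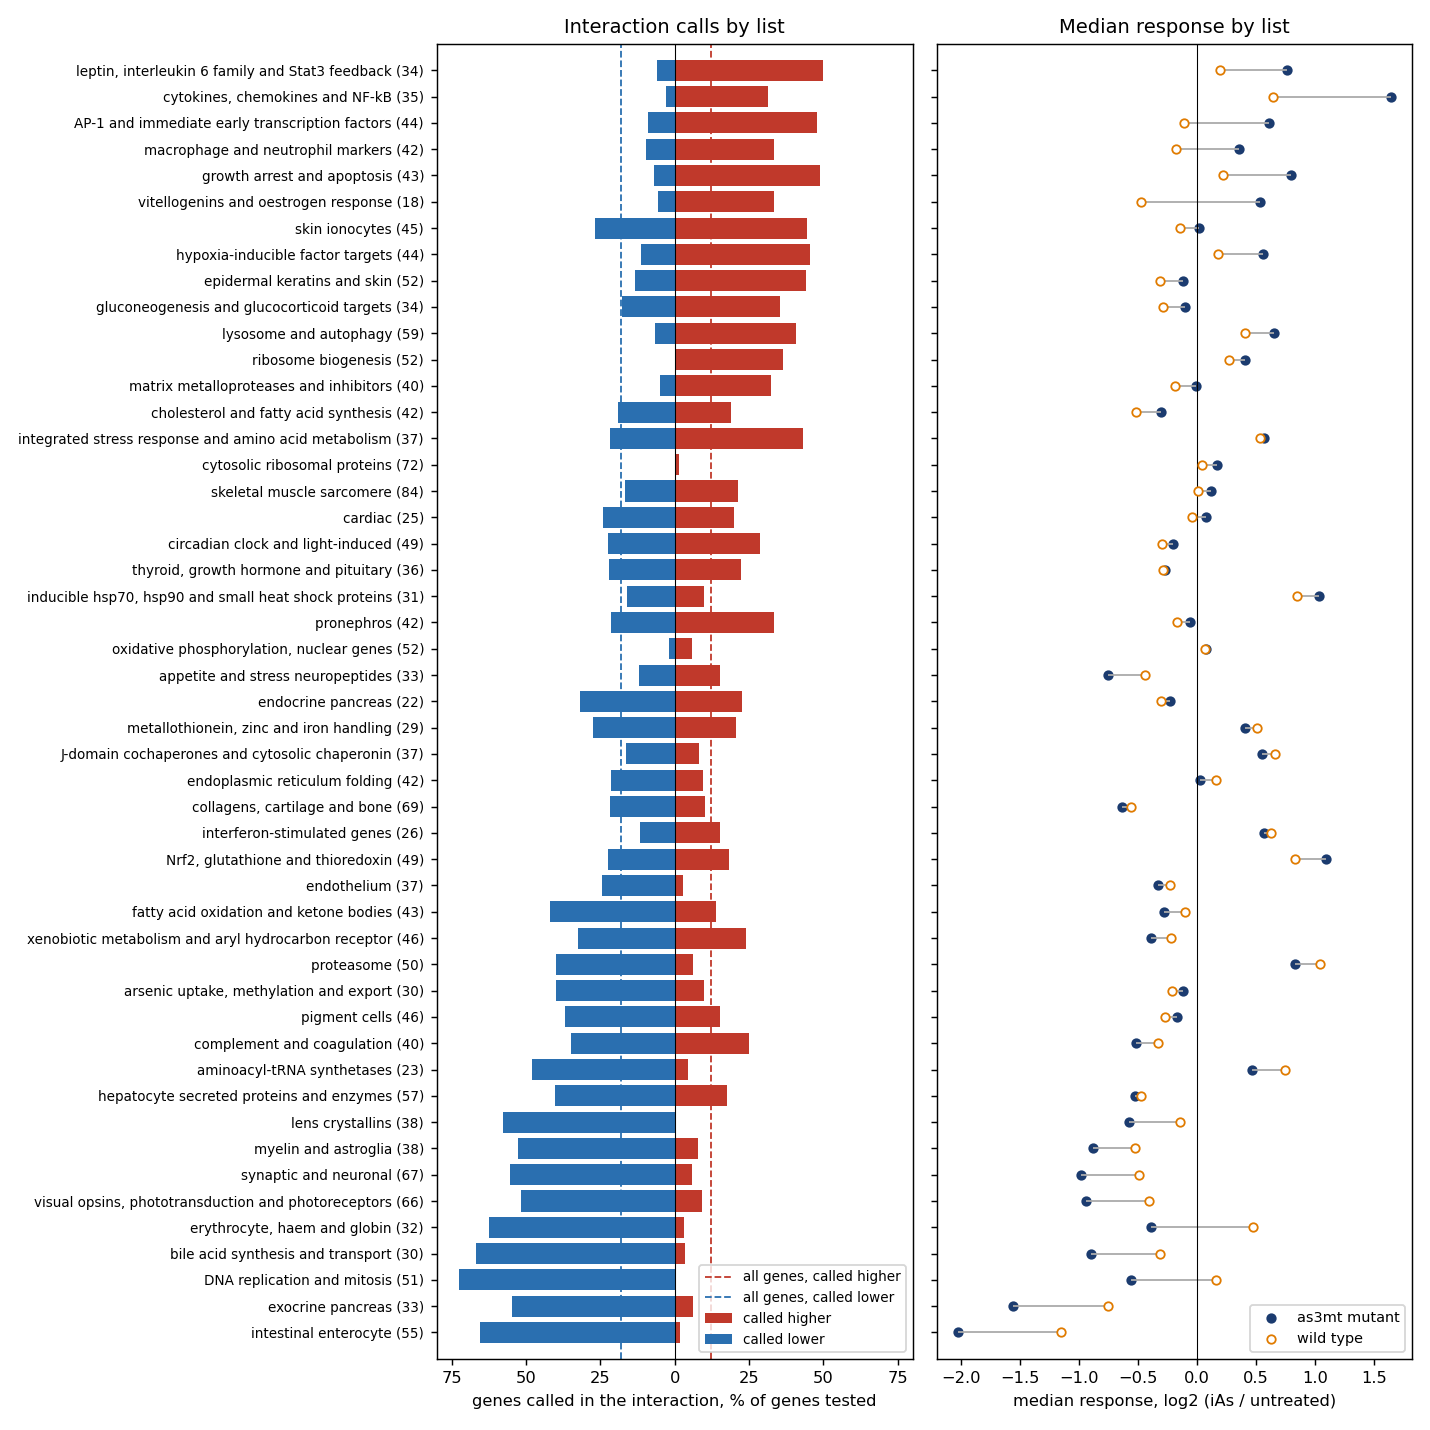
For each gene list, the percent of tested members with a called interaction, higher to the right and lower to the left, with dashed lines at the shares over all genes (12.3% and 17.9%), and beside it the median log2 response to iAs in the mutant (filled) and in wild type (open). The enterocyte, exocrine pancreas, bile acid, photoreceptor and synaptic lists have the mutant median further below 0 than wild type. The cytokine, growth arrest and leptin lists have the mutant median further above 0.

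Immediate early transcription factors rose more often in the mutant. Of 44 genes, 24 rose and 9 fell in the mutant, against 8 and 12 in wild type. Among them 21 had a higher interaction and 4 a lower one (median 0.64, and 2 lower without replicate 2 of the untreated mutant). The median log2 response was 0.61 in the mutant and -0.10 in wild type. FOS, the partner of Jun in AP-1, had 108, 13.9 and 26.7 CPM in treated mutant larvae, 4.67, 2.83 and 11.8 in untreated mutant larvae, 4.18, 3.05 and 3.41 in treated wild type and 2.59, 4.51 and 7.48 in untreated wild type. All 3 treated mutant libraries stood above the other 9, and replicate 1 was the highest by far. The interaction was 3.40 (SE 0.89, adjusted p = 0.00754), with a log2 response of 2.96 in the mutant and -0.44 in wild type. It was 2.11 without replicate 1 of the treated mutant and 4.16 without replicate 3 of the untreated mutant, and it was called in both. FOSB, of the same family, had 19.8, 0.963 and 1.72 CPM in treated mutant larvae, 1.14, 1.70 and 2.20 in untreated mutant larvae, 0.391, 0.406 and 0.343 in treated wild type and 1.09, 1.34 and 1.22 in untreated wild type (interaction 3.85, and 1.35 without replicate 1 of the treated mutant). That library alone stood above the others, replicates 2 and 3 of the treated mutant lay within or below the range of the untreated mutant, and treated wild type was lowest.

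JDP2 (ENSDARG00000020133), an AP-1 family factor that binds Jun and ATF sites, had 36.4, 7.45 and 8.93 CPM in treated mutant larvae, 2.80, 2.88 and 7.46 in untreated mutant larvae, 3.76, 2.10 and 2.49 in treated wild type and 3.87, 4.15 and 4.84 in untreated wild type. Replicate 1 of the treated mutant stood far above the rest, and replicate 2 was level with replicate 3 of the untreated mutant, so the groups overlapped slightly. The log2 responses were 2.02 in the mutant and -0.64 in wild type, with an interaction of 2.66 (SE 0.70, adjusted p = 0.00822). Without replicate 1 of the treated mutant it was 1.54, and without replicate 3 of the untreated mutant 3.27. FOSL1 rose in both genotypes and more in the mutant (6.60 against 3.92 in wild type, interaction 2.68, 1.96 without replicate 1 of the treated mutant and 3.39 without replicate 3 of the untreated mutant). Summed over the list, the levels ran over 2069 to 3684 CPM in treated mutant larvae, 1263 to 1609 in untreated mutant larvae, 1214 to 1340 in treated wild type and 1190.1 to 1357 in untreated wild type.

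ATF3, a stress factor downstream of Atf4, had 365, 179 and 219.9 CPM in treated mutant larvae, 8.43, 8.13 and 8.79 in untreated mutant larvae, 46.2, 41.3 and 53.7 in treated wild type and 6.38, 8.25 and 9.74 in untreated wild type. Wild type rose as well, but its treated libraries stayed below every treated mutant library (interaction 2.37, SE 0.29, adjusted p = 1.17e-05, and 2.02 without replicate 1 of the treated mutant). The phosphatase subunit gene ppp1r15a, which restores translation after stress, had 248, 188 and 185 CPM in treated mutant larvae, 26, 26 and 35.4 in untreated mutant larvae, 57.9, 55.1 and 70.6 in treated wild type and 35.1, 33.7 and 32.8 in untreated wild type (interaction 1.98, SE 0.18, adjusted p = 3.72e-07). In the whole integrated stress response list, 16 of 37 genes were called higher and 8 lower (median 0.16). Its amino acid enzymes are described further on. PFKFB3, which makes an activator of glycolysis, had an interaction of 1.70.

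Among chaperones a few genes rose more in the mutant, and the list as a whole had shares near those of all genes. Of 31 inducible Hsp70, Hsp90 and small heat shock genes, 3 had a higher interaction and 5 a lower one (1 higher without replicate 2 or 3 of untreated wild type, 5 higher without replicate 1 of treated wild type). The inducible chaperone gene hsp70l had 1493, 296 and 388 CPM in treated mutant larvae, 3.08, 4.20 and 2.91 in untreated mutant larvae, 84.2, 38.7 and 50.1 in treated wild type and 1.59, 1.99 and 2.26 in untreated wild type. All treated libraries of both genotypes lay above the untreated ones, with replicate 1 of the treated mutant highest. Its interaction was 2.85 (SE 0.87, adjusted p = 0.0199). It fell to 1.76 without that library, and the call was lost without replicate 2 (2.81, adjusted p = 0.053) or replicate 3 (2.73, adjusted p = 0.0512) of untreated wild type.

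The Hsp40 cochaperone dnajb1b had 119, 46.4 and 54.4 CPM in treated mutant larvae, 2.85, 2.99 and 3.28 in untreated mutant larvae, 16.6, 14 and 14.7 in treated wild type and 2.28, 2.86 and 3.65 in untreated wild type, and its treated mutant libraries all lay above the treated wild type (interaction 2.21, SE 0.42, adjusted p = 7.83e-04, and 1.67 without replicate 1 of the treated mutant). Several other chaperones went the other way, with a rise in both genotypes that was smaller in the mutant. The cytosolic Hsp90 gene hsp90aa1.1 rose by 2.39 in the mutant and 3.18 in wild type, the small heat shock gene HSPB1 by 2.18 and 3.30, and UNC45B, the myosin chaperone, by 1.44 and 2.14 (log2, interactions -0.79, -1.13 and -0.70). Of J-domain cochaperones and chaperonin subunits, 32 of 37 rose in the mutant and 32 in wild type. Interactions were called higher for 3 (8.11%) and lower for 6 (16.2%), where the shares of all genes were 12.3% and 17.9%. Near-identical hsp70 copies may share reads, so single hsp70 values are uncertain.

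Targets of hypoxia-inducible factor rose further in the mutant in many cases. Of 44 genes, 20 were called higher and 5 lower (median 0.31), and 18 of the called genes changed in both genotypes and more in the mutant. EGLN3, the oxygen-sensing prolyl hydroxylase that is itself a target, rose by 5.57 in the mutant and 3.41 in wild type (log2, interaction 2.16). Both copies of ADM, which encode the vasodilator peptide adrenomedullin, were higher, at 2.18 (ENSDARG00000015263) and 2.28 (ENSDARG00000069027). ANKRD37, an ankyrin repeat gene known as a hypoxia target, had 20.7, 33 and 23.7 CPM in treated mutant larvae, 2.32, 1.98 and 1.81 in untreated mutant larvae, 6.07, 5.56 and 4.99 in treated wild type and 2.79, 2.84 and 1.67 in untreated wild type (interaction 2.50, SE 0.28, adjusted p = 4.08e-06). Its treated mutant libraries did not overlap with any other group. NDRG1 (ENSDARG00000010420) had an interaction of 2.51, with log2 responses of 2.77 in the mutant and 0.27 in wild type, where it was not called.

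Many interleukin, leptin and chemokine genes rose more in the mutant. Of 34 genes of leptin, the interleukin 6 family and Stat3 feedback, 17 were called higher and 2 lower (median 0.68). The lower count was 0 without replicate 1 of the treated mutant and 1 without any 1 of the others except replicate 2 of untreated wild type, replicate 3 of treated wild type, replicate 1 of the untreated mutant and replicate 2 of the treated mutant. Of 35 cytokine, chemokine and NF-kB genes 11 were higher and 1 lower (median 0.68). SOCS3 (ENSDARG00000026611), the feedback inhibitor induced by Stat3, had 161, 83.7 and 97.3 CPM in treated mutant larvae, 15.2, 17.6 and 18.3 in untreated mutant larvae, 33.7, 32.3 and 43.9 in treated wild type and 15.8, 14.8 and 14.2 in untreated wild type (interaction 1.45, SE 0.26, adjusted p = 3.68e-04). Every treated mutant library lay above every treated wild-type library. The leptin gene lepa was near 0 without iAs, with 0.0252, 0.0275 and 0 CPM in untreated mutant larvae and 0.0557, 0.0774 and 0.104 in untreated wild type, and reached 11, 4.50 and 4.60 CPM in treated mutant larvae, against 1.77, 0.881 and 0.961 in treated wild type. With so few counts its fold is not given, and its call was lost without any of 3 untreated libraries (adjusted p of 0.0545 without replicate 3 of the mutant, 0.0659 and 0.0766 without replicates 2 and 3 of wild type).

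In the interferon-stimulated list, 4 of 26 genes were called higher (15.4%) and 3 lower (11.5%), where the shares of all genes were 12.3% and 17.9%. The lower count was 1 without replicate 3 of the untreated mutant, replicate 2 of treated wild type or replicate 3 of untreated wild type. IRF7, the interferon regulatory factor, was among the genes called higher (0.95). The light chain gene of class I molecules, b2m, rose less in the mutant (1.08 against 2.32 in wild type, interaction -1.24).

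Leukocyte genes, like the cytokines, had more interactions called higher than lower. Of 42 macrophage and neutrophil markers, 14 were called higher and 4 lower (median 0.48), and their summed level ran over 352 to 414 CPM in treated mutant larvae, 234 to 241 in untreated mutant larvae, 259 to 260.5 in treated wild type and 217 to 220.2 in untreated wild type. Of these markers, 20 rose and 10 fell in the mutant, against 7 and 11 in wild type. Of the cytokine genes, 28 rose in the mutant and 21 in wild type, and 0 fell in either. The part of leukocyte number in the cytokine result was not tested. In whole larvae, more or fewer cells of a type and more or less RNA per cell cannot be told apart, here and for every tissue below. The phagocyte oxidase subunit gene cybb had an interaction of 2.46 and a wild-type log2 response of -0.26 that was not called. MFAP4 (ENSDARG00000088745), used in zebrafish as a macrophage marker, was at 2.54, and irg1l, which makes itaconate in activated macrophages, at 1.47. The symbol MFAP4 is given to 6 IDs, and this one was chosen after its value was seen. PTGS2 (ENSDARG00000010276), the inducible prostaglandin synthase, was at 2.48 (1.65 without replicate 1 of the treated mutant and 3.09 without replicate 3 of the untreated mutant). The chemokine receptor CXCR4 (ENSDARG00000057633) was at 1.47. All genes named in this paragraph were called higher, and the 4 markers called lower are not named. The lowest interaction on the marker list was -1.04.

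Matrix-degrading enzymes and their inhibitors had 13 of 40 genes higher and 2 lower. The lower count was 0 without replicate 1 of the treated mutant, replicate 1 of the untreated mutant, replicate 2 of treated wild type or replicate 3 of untreated wild type, and 1 without replicate 2 of either mutant group, replicate 3 of treated wild type or replicate 2 of untreated wild type. The collagenase gene mmp13a had 58.7, 13.1 and 20.5 CPM in treated mutant larvae, 1.41, 1.02 and 1.33 in untreated mutant larvae, 7.85, 3.66 and 4.19 in treated wild type and 1.48, 2.22 and 1.15 in untreated wild type (interaction 2.97, SE 0.72, adjusted p = 0.00458, and 2.09 without replicate 1 of the treated mutant). It was higher with iAs in both genotypes, and the treated mutant libraries stood above all others. In the growth arrest and apoptosis list 21 of 43 genes were higher and 3 lower (median 0.47, and 1 lower without replicate 1 of either wild-type group). The growth arrest genes GADD45B rose more in the mutant in both copies, with interactions of 1.54 (ENSDARG00000013576) and 1.43 (ENSDARG00000027744).

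**Figure D3:**
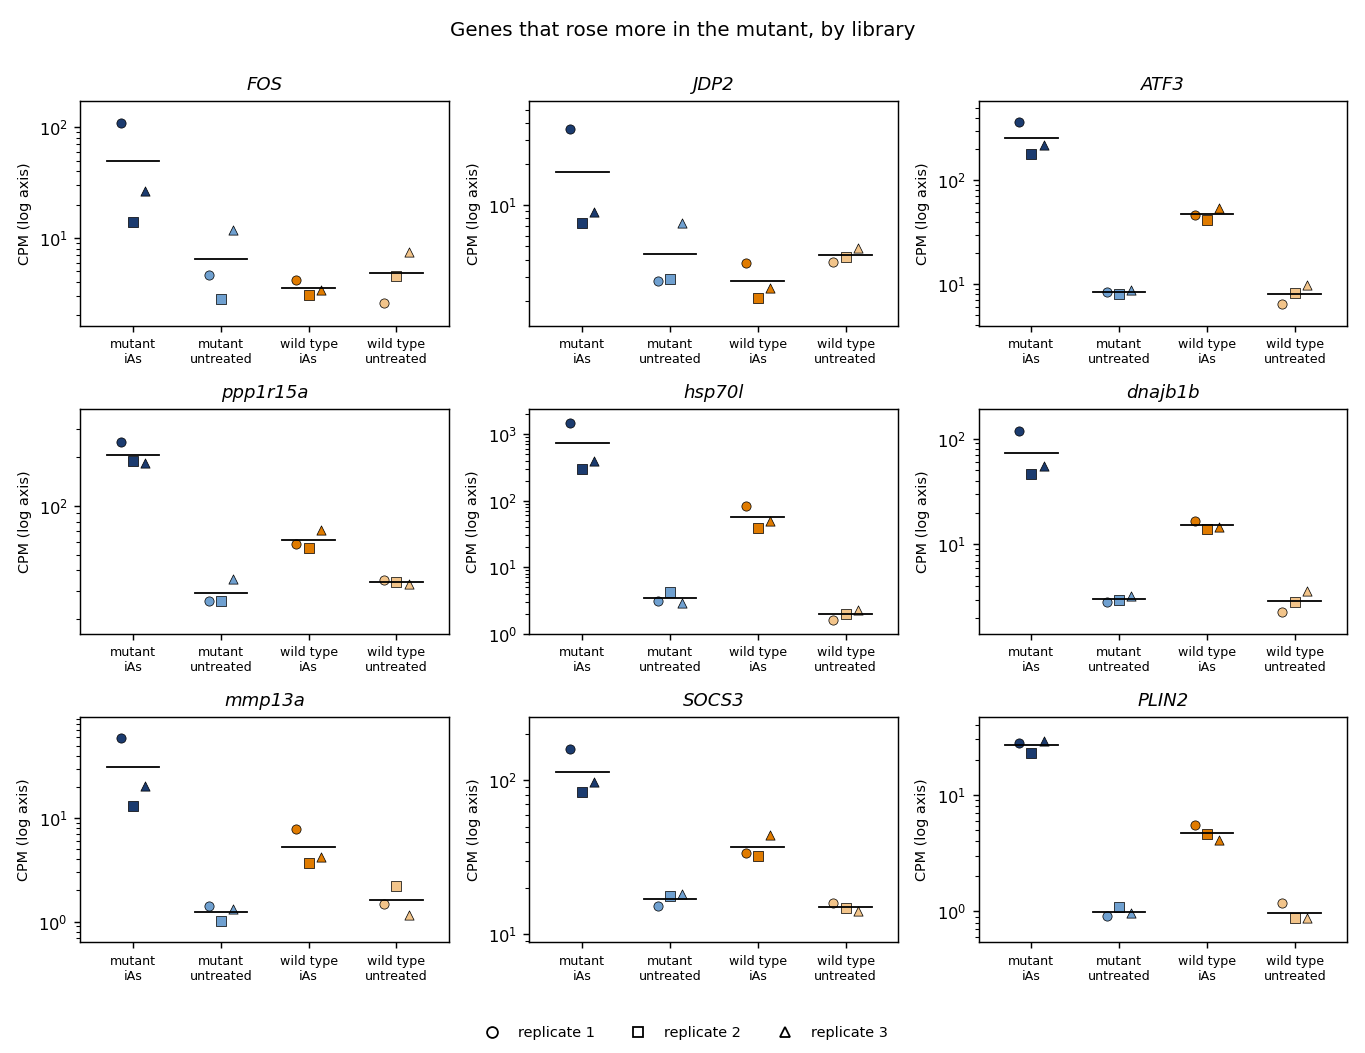
Levels in CPM (log axis) of 9 genes that rose more in the as3mt mutant, for treated and untreated mutant and treated and untreated wild type, with 1 marker per library shaped by replicate and a line at the group mean. The 3 treated mutant libraries lie above the untreated ones of both genotypes in every panel but that of JDP2. There replicate 2 is level with replicate 3 of the untreated mutant. Replicate 1 of the treated mutant is the highest library in every panel but that of PLIN2.

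Lysosome and autophagy genes rose in both genotypes, 44 of 59 in the mutant and 45 in wild type, and 24 had higher interactions while 4 had lower ones. TFE3, a master transcription factor of lysosome genes, rose by 2.29 in the mutant and 1.19 in wild type (interaction 1.10). The protease CTSD and the membrane protein LAMP1 had smaller differences of 0.54 and 0.54, and the proton pump subunit ATP6V1A (ENSDARG00000076318) was at 0.75. The summed list stood at 9483 to 10017 CPM in treated mutant larvae, 4286 to 4421 in untreated mutant larvae, 6941 to 7677 in treated wild type and 4066 to 4226 in untreated wild type.

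PLIN2, which coats lipid droplets, had 27.9, 22.9 and 29.1 CPM in treated mutant larvae, 0.908, 1.10 and 0.961 in untreated mutant larvae, 5.53, 4.65 and 4.07 in treated wild type and 1.17, 0.877 and 0.870 in untreated wild type (interaction 2.48, SE 0.26, adjusted p = 1.71e-06). Its treated mutant libraries stood clear of treated wild type, and the untreated groups overlapped. Of 34 gluconeogenesis and glucocorticoid target genes, 12 were higher and 6 lower. Of 52 ribosome biogenesis genes, 19 were higher and 0 lower (12 higher and 1 lower with library size alone, 24 higher with DESeq2 size factors). Their summed level was 3670 to 3748 CPM in treated and 2774 to 2967 in untreated mutant larvae. In wild type it was 3830 to 3935 treated and 3451 to 3493 untreated. The mutant thus started lower and stayed below wild type under iAs. The rRNA methyltransferase gene nop2 had an interaction of 0.65 and the nucleolar gene NOC2L 0.53, and both were lower in the untreated mutant than in untreated wild type (-0.46 and -0.38).

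Skin genes went in both directions, with 23 of 52 higher and 7 lower (4 lower without replicate 1 or 2 of untreated wild type or replicate 2 of the untreated mutant). In the mutant 18 rose and 21 fell, against 8 and 29 in wild type. Their summed level overlapped in the mutant, at 14738 to 16083 CPM treated and 15012 to 16699 untreated. In wild type it was lower with iAs, at 11888 to 13536 treated and 16259 to 17608 untreated. The epithelial adhesion gene epcam rose in the mutant (1.20) and had a wild-type response of -0.18 that was not called (interaction 1.38), and the claudin gene cldnb did the same (1.16 and -0.17, interaction 1.32). The keratin gene krt93 fell more in the mutant (-2.57 against -0.98 in wild type). Of 45 ionocyte genes, which serve salt and acid transport in the skin, 20 were higher and 12 lower. Among them the ammonium channel gene RHCG (ENSDARG00000100265) had an interaction of 1.78. The lowest value on this list, -3.24, is that of SLC4A1 (ENSDARG00000012881), described below with the red cell genes, so not every member is particular to ionocytes.

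Genes of the intestinal absorptive cell fell in both genotypes and further in the mutant. Of 55 enterocyte genes, 49 fell in the mutant and 47 in wild type, and 34 of the 36 lower interactions were larger falls. The median log2 response was -2.02 in the mutant and -1.15 in wild type. The carboxypeptidase gene cpo, a brush-border peptidase in mammals, had 1.67, 2.12 and 2.00 CPM in treated mutant larvae, 65.9, 68 and 70.8 in untreated mutant larvae, 29.6, 33.9 and 27.3 in treated wild type and 69.9, 64.7 and 67.6 in untreated wild type (interaction -3.99, SE 0.13, adjusted p = 3.43e-12). Treated mutant libraries were the lowest and treated wild type lay between them and the untreated groups. The peptide transporter SLC15A1 had interactions of -1.53 (ENSDARG00000044528) and -2.42 (ENSDARG00000100315), and the disaccharidase LCT (ENSDARG00000060671) was at -2.34 on the log2 scale. In CPM the fall of LCT was nearly equal, with means from 63.5 to 2.09 in the mutant and from 75.6 to 12.7 in wild type. TM4SF5 was at -2.65 and the fatty acid binding protein FABP1 (ENSDARG00000059227) at -1.27. The thiamine transporter gene slc19a3a fell in the mutant alone, with 0.674, 0.765 and 0.501 CPM in treated mutant larvae, 9.28, 7.08 and 7.37 in untreated mutant larvae, 6.56, 7.07 and 6.66 in treated wild type and 6.82, 6.29 and 6.82 in untreated wild type (interaction -3.63, SE 0.22, adjusted p = 5.09e-09). Wild type showed no called change in it (0.03).

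Of 30 bile acid genes, 24 fell and 3 rose in the mutant, against 16 and 6 in wild type. Interactions were lower for 20 and higher for 1 (median -0.65). Among the called genes, 11 changed in both genotypes and more in the mutant, 1 changed less there and 4 changed in the mutant alone. A further 5 were called in opposite directions, where the share of all genes was 1.36%. ABCB11, the pump that exports bile salts from hepatocytes, had 1.08, 0.453 and 2.10 CPM in treated mutant larvae, 47.1, 43.1 and 43.1 in untreated mutant larvae, 24.5, 14.9 and 13.4 in treated wild type and 51.4, 52.3 and 47.9 in untreated wild type (interaction -3.69, SE 0.35, adjusted p = 6.6e-07). Its treated mutant libraries lay below all others, and without replicate 3 of that group the value was -4.30. The uptake transporter SLC10A1 had log2 responses of -3.22 in the mutant and -1.03 in wild type (interaction -2.19). The nuclear receptor gene nr5a5 had an interaction of -3.21.

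The repressors of bile acid synthesis known as SHP rose in wild type and fell in the mutant. For nr0b2b there were 0.189, 0.0566 and 0.157 CPM in treated mutant larvae, 2.19, 1.92 and 1.07 in untreated mutant larvae, 4.57, 4.67 and 4.30 in treated wild type and 1.87, 0.825 and 1.29 in untreated wild type (interaction -5.43, SE 0.51, adjusted p = 6.26e-07). Treated wild type stood highest and the treated mutant lowest. The treated mutant libraries held few counts of nr0b2b, so the size of its interaction is imprecise. NR0B2 had 13.2, 11.6 and 10.2 CPM in treated mutant larvae, 20.2, 25.9 and 20.3 in untreated mutant larvae, 22.1, 17.3 and 20.4 in treated wild type and 6.32, 4.33 and 7.06 in untreated wild type, so the untreated mutant was already above untreated wild type (1.92, adjusted p = 2.23e-07) and the interaction was -2.69.

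Of 57 hepatocyte genes, 23 had lower and 10 higher interactions (median -0.30, and 6 higher without replicate 1 of either untreated group). The liver fatty acid binding protein gene fabp10a had 19.7, 10.4 and 25.8 CPM in treated mutant larvae, 217, 249 and 274 in untreated mutant larvae, 189.9, 146 and 148 in treated wild type and 360.5, 315 and 304 in untreated wild type (interaction -2.71, SE 0.27, adjusted p = 1.19e-06). Treated mutant libraries fell below every other group. The fetuin gene ahsg2 had an interaction of -3.69 (-4.75 without replicate 2 of the treated mutant) with a level in the untreated mutant already below wild type (-1.25), so that in CPM the fall was larger in wild type, and the urea cycle enzyme CPS1 was at -1.44. Summed hepatocyte levels ran over 10754 to 12115 CPM in treated mutant larvae, 15205 to 16941 in untreated mutant larvae, 12473 to 12824 in treated wild type and 14764 to 16324 in untreated wild type.

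Complement and coagulation genes split, with 10 of 40 higher and 14 lower. The complement gene c4b rose by 4.06 in the mutant and 2.23 in wild type (interaction 1.83), while the lectin-pathway protease MASP2 fell more in the mutant (-1.83). Fatty acid oxidation and ketone body genes had 18 of 43 lower and 6 higher. Of 42 cholesterol and fatty acid synthesis genes, 8 were higher and 8 lower; without replicate 1 of the untreated mutant there were 14 higher, and without replicate 1 of the treated mutant 13. SQLE (ENSDARG00000079946), an early enzyme of sterol synthesis, fell in wild type (-1.70) and not by a called amount in the mutant (-0.31). The triglyceride enzyme DGAT1 (ENSDARG00000103503) was at -1.74.

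Digestive enzyme genes of the exocrine pancreas fell in both genotypes, 29 of 33 in the mutant and 29 in wild type, and 18 had a lower interaction against 2 higher (0 higher without replicate 1 of untreated wild type or replicate 1 or 2 of the untreated mutant, and 1 without replicate 1 of the treated mutant or replicate 2 of treated wild type). The median log2 response was -1.55 in the mutant and -0.75 in wild type. The elastase gene ela2 had 101, 86.4 and 66.4 CPM in treated mutant larvae, 641, 667 and 752 in untreated mutant larvae, 476, 457 and 562 in treated wild type and 1131, 918 and 881 in untreated wild type (interaction -2.05, SE 0.17, adjusted p = 2.11e-07). Groups did not overlap, with the treated mutant lowest and untreated wild type highest. The zymogen granule gene SYCN (ENSDARG00000103687) was at -1.98 and the pancreatic disulfide isomerase pdia2 at -0.62. Their levels were lower in the untreated mutant as well (-0.51 for ela2 and -0.76 for SYCN).

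Nervous system and eye genes fell in both genotypes, and more in the mutant. Of 67 synaptic and neuronal genes, 37 were lower and 4 higher, and 37 of the called ones changed in one direction in both genotypes and more in the mutant. Of 38 myelin and astroglia genes, 20 were lower and 3 higher (1 higher without replicate 2 of treated or replicate 3 of untreated wild type). Myelin basic protein gene mbpa was at -3.12 and mag, also a myelin protein, at -2.74. The oligodendrocyte factor olig1 was at -5.12 (-5.76 without replicate 2 of the treated mutant, where as few as 1 count was left). Neurofilament genes nefmb and nefla were at -2.92 and -1.67. The axon growth gene gap43 went up in the mutant (1.01), with -0.23 in wild type, not called.

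Photoreceptor genes had 34 of 66 interactions lower and 6 higher (median -0.52), with median log2 responses of -0.94 in the mutant and -0.41 in wild type. The calcium sensor gene guca1d, which activates guanylate cyclase in photoreceptors, had 0.405, 0.368 and 0.501 CPM in treated mutant larvae, 7.59, 6.56 and 7.77 in untreated mutant larvae, 5.59, 3.97 and 4.41 in treated wild type and 6.63, 6.68 and 6.26 in untreated wild type (interaction -3.61, SE 0.25, adjusted p = 1.84e-08). The ankyrin repeat gene ankrd33ab was at -3.22. Of 38 lens crystallin genes 22 were lower and 0 higher, and 15 of these changed in the mutant alone. The gene crygm5 was one of them (-1.22 in the mutant and 0.08, not called, in wild type), while crybb1l3 fell in both (-2.99 against -1.16 in wild type).

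Genes of DNA replication and mitosis fell in the mutant and did not, as a group, fall in wild type. Of 51 genes, 37 had a lower interaction and 0 a higher one, with 19 changed in the mutant alone. A further 7 were called in opposite directions, where the share of all genes was 1.36%. The median log2 response was -0.55 in the mutant and 0.16 in wild type. Their summed level was 995 to 1016 CPM in treated mutant larvae, 1509 to 1595 in untreated mutant larvae, 1371 to 1462 in treated wild type and 1371 to 1452 in untreated wild type. RRM1, a subunit of the enzyme that makes deoxynucleotides, had 25, 27.1 and 25.9 CPM in treated mutant larvae, 55.6, 56 and 52.5 in untreated mutant larvae, 53.8, 53.1 and 58.5 in treated wild type and 50.2, 52.7 and 54.4 in untreated wild type (interaction -1.15, SE 0.09, adjusted p = 8.24e-08). Its partner RRM2 (ENSDARG00000078069) was at -1.23, the replicative helicase subunit MCM5 at -1.01 and the DNA polymerase POLE at -1.05. GART, of purine synthesis, rose in wild type (0.35) and fell in the mutant (-0.80).

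Red blood cell genes held the most members called in opposite directions among the 49 lists. Of 32 erythrocyte, haem and globin genes, 16 rose and 5 fell in wild type, while 5 rose and 16 fell in the mutant, and 8 were called in opposite directions with a called interaction, against 1.36% of all genes. Haem synthesis in the red cell starts with alas2, which had 4.37, 4.76 and 3.95 CPM in treated mutant larvae, 11.3, 15.3 and 12 in untreated mutant larvae, 22.5, 20.5 and 24 in treated wild type and 10.9, 11.2 and 11.3 in untreated wild type (interaction -2.56, SE 0.16, adjusted p = 7.73e-09). Treated wild type stood highest, the treated mutant lowest, and the untreated groups lay between them. The band 3 anion exchanger SLC4A1 (ENSDARG00000012881) had 13.2, 10 and 11.2 CPM in treated mutant larvae, 54, 59.4 and 50.8 in untreated mutant larvae, 84.9, 77.6 and 81.4 in treated wild type and 39.1, 41.6 and 42.3 in untreated wild type (interaction -3.24, SE 0.12, adjusted p = 5.28e-12), in the same order.

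The erythroid transcription factors moved with them. For klf1 the log2 response was -1.60 in the mutant and 0.79 in wild type, an interaction of -2.39. For gata1a it was -1.81 and 0.57, the wild-type value not being called, an interaction of -2.37 (-3.00 without replicate 1 of the treated mutant, with as few as 3 counts in that group). The transferrin receptor gene tfr1a, which brings iron into red cells, was at -1.92. A glycine carrier gene of haem synthesis that is not on the list, SLC25A38 (ENSDARG00000059805), went the other way. It rose by 4.46 in the mutant and 1.69 in wild type (interaction 2.77). Beta tubulin tubb1 had 0.566, 0.595 and 0.814 CPM in treated mutant larvae, 2.12, 2.58 and 2.09 in untreated mutant larvae, 4.54, 4.20 and 5.12 in treated wild type and 2.09, 2.11 and 2.47 in untreated wild type (interaction -2.84, SE 0.27, adjusted p = 8.64e-07). The level summed over the list did not follow this order, as it stood at 1363 to 1506 CPM in treated mutant larvae, 1267 to 1366 in untreated mutant larvae, 1556 to 1699 in treated wild type and 1115 to 1168 in untreated wild type.

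Other genes that fell in the mutant and rose in wild type were apoa4b.2, an apolipoprotein of the gut, with 16.2, 22.3 and 20.5 CPM in treated mutant larvae, 119, 114 and 101 in untreated mutant larvae, 136, 139.8 and 177 in treated wild type and 119.6, 89.5 and 124 in untreated wild type (interaction -2.95, SE 0.18, adjusted p = 5.51e-09). Untreated libraries of both genotypes overlapped there, and the treated ones moved apart. The dehydrogenase gene SDR42E2 was at -2.91 and the cadherin gene cdh29 at -5.08 (-6.23 without replicate 3 of the treated mutant). Both differed between genotypes without iAs, SDR42E2 being higher in the mutant (2.10) and cdh29 lower (-2.20).

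In the reverse direction, scpp9, of the secretory calcium-binding phosphoproteins, had 8.17, 8.61 and 7.86 CPM in treated mutant larvae, 1.69, 1.24 and 1.78 in untreated mutant larvae, 0.752, 0.903 and 0.640 in treated wild type and 1.17, 1.24 and 1.18 in untreated wild type (interaction 3.03, SE 0.27, adjusted p = 4.01e-07). Its treated mutant libraries lay above all others, and its treated wild-type libraries lay below all others. The annexin gene anxa1b of the skin had 16.8, 18.3 and 12 CPM in treated mutant larvae, 12.3, 9.64 and 13.5 in untreated mutant larvae, 4.63, 5.51 and 7.53 in treated wild type and 19.7, 28.5 and 24.9 in untreated wild type (interaction 2.45, SE 0.26, adjusted p = 1.95e-06). For anxa1b the untreated wild type was the highest group, so the mutant started lower and ended higher than wild type. A second apolipoprotein, apoa4a, had an interaction of 2.27, the cytochrome P450 gene cyp1c2 1.78 and the immunoglobulin superfamily gene hhla2a.2 1.71. The pteridine pigment enzyme gch2 rose in the mutant (0.51) and fell in wild type (-1.10).

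**Figure D4:**
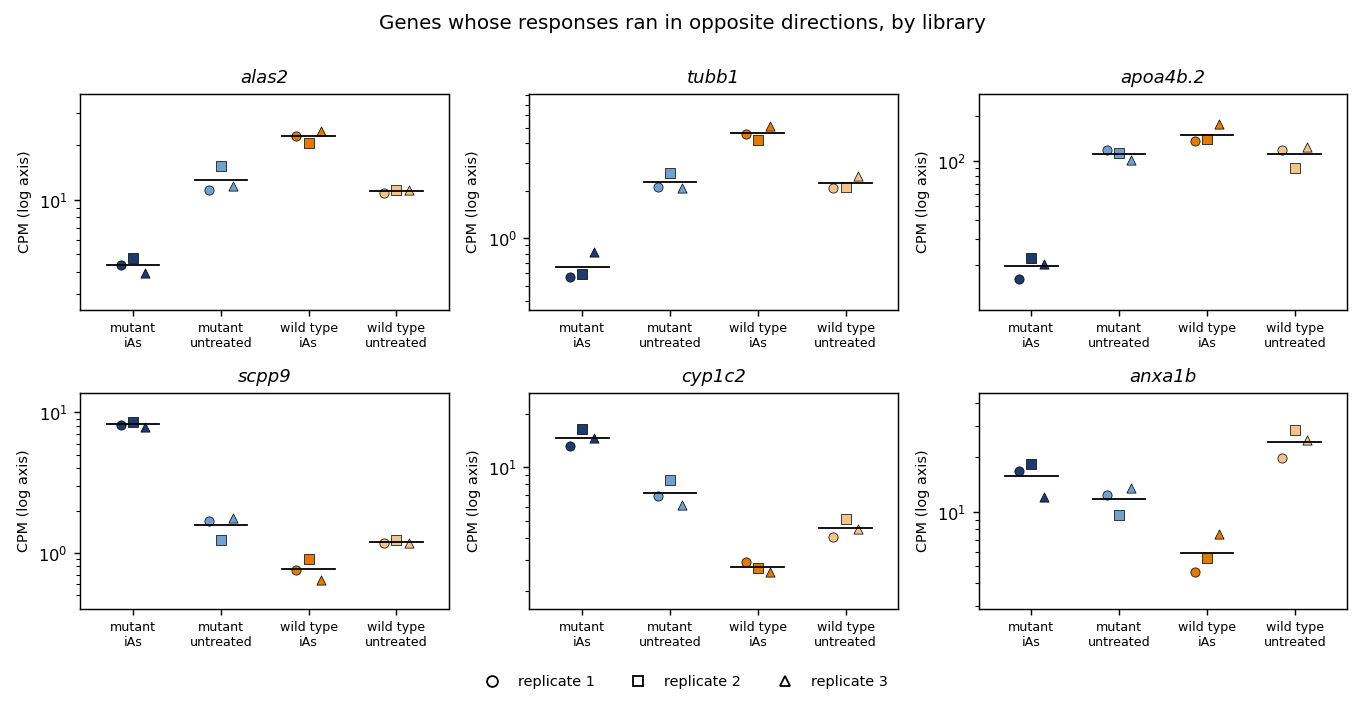
Levels in CPM (log axis) of 6 genes that responded in opposite directions, in treated and untreated mutant and treated and untreated wild type, with 1 marker per library shaped by replicate and a line at the group mean. The genes alas2, tubb1 and apoa4b.2 are lowest in the treated mutant and highest in treated wild type, while scpp9, cyp1c2 and anxa1b rise with iAs in the mutant and fall in wild type.

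Apart from the 553 genes whose response was called in wild type alone, some responses were called in both genotypes and smaller in the mutant. These were few, 210 genes or 0.909% of those tested. Among them 20 were on the proteasome list, 9 were aminoacyl-tRNA synthetases and 7 were on the Nrf2 list. The glutathione transferase gsta.2 had 131, 108 and 140.3 CPM in treated mutant larvae, 55.4, 66.8 and 72 in untreated mutant larvae, 710.4, 655 and 692 in treated wild type and 67, 64.3 and 64.3 in untreated wild type (interaction -2.43, SE 0.13, adjusted p = 1.05e-09). All treated wild-type libraries lay far above the treated mutant, and the untreated groups were close. The omega-class transferase gsto2, of the class that can reduce methylated arsenic in mammals, had 289, 225 and 285 CPM in treated mutant larvae, 41.1, 48 and 47.3 in untreated mutant larvae, 587, 609 and 567 in treated wild type and 29.2, 30.7 and 30.4 in untreated wild type (interaction -1.74, SE 0.12, adjusted p = 2.03e-08). Without iAs gsto2 was higher in the mutant than in wild type (0.59), which is part of this interaction. The methyltransferase gene tpmt.2 had 16.9, 14.7 and 18.1 CPM in treated mutant larvae, 2.80, 3.65 and 2.23 in untreated mutant larvae, 40.7, 39.8 and 52.3 in treated wild type and 2.84, 2.24 and 3.37 in untreated wild type (interaction -1.47, SE 0.23, adjusted p = 1.50e-04). In these 3 genes the mutant rose, and by less than wild type.

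The wider Nrf2, glutathione and thioredoxin list did not share this direction. Of 49 genes, 9 were higher and 11 lower, with 6 larger and 7 smaller in the mutant among genes changed in both genotypes. The median log2 response was 1.09 in the mutant and 0.83 in wild type. GCLC, the catalytic subunit for glutathione synthesis, rose by 1.51 in the mutant and 2.19 in wild type (interaction -0.68), and gstp1.2 was at -0.76. The theta-class transferase gstt1b rose in wild type alone (1.38, against -0.12 in the mutant). The regulators themselves had higher interactions, 0.71 for keap1a, which holds Nrf2 back, and 0.77 for NFE2L2, which encodes Nrf2. Responses of NFE2L2 were called in opposite directions (0.51 in the mutant and -0.26 in wild type). The gene keap1a rose in both genotypes and was lower in the untreated mutant than in untreated wild type (-0.38). Haem oxygenase HMOX1 had 42.2, 38.7 and 41.7 CPM in treated mutant larvae, 11.2, 9.31 and 12.5 in untreated mutant larvae, 16.5, 19.6 and 19.6 in treated wild type and 10.6, 10.7 and 15.3 in untreated wild type (interaction 1.28, SE 0.18, adjusted p = 4.42e-05), and BLVRA, which acts on its product biliverdin, was at -1.30. BLVRA fell in the mutant (-0.42) and rose in wild type (0.87).

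Proteasome genes rose in nearly every case in both genotypes, 49 of 50 in the mutant and 49 in wild type. Of 50, 20 had lower interactions, every one of them a smaller rise, and 3 higher ones (5 higher without replicate 2 of the treated mutant). The median log2 response was 0.83 in the mutant and 1.05 in wild type. The lower count was 10 without replicate 3 and 27 without replicate 1 of treated wild type, and 12 to 13 without replicate 1 or 2 of untreated wild type, replicate 2 of the untreated mutant or replicate 2 of the treated mutant. It was 13 with DESeq2 size factors and 31 with library size alone. The catalytic subunit gene PSMB5 was at -0.44 and PSMD2 at -0.36 (ENSDARG00000099653) and -0.54 (ENSDARG00000103190). The activator PSME2 had a larger difference (-1.40), while PSME4 (ENSDARG00000087911), another activator, rose more in the mutant (1.15), as did NFE2L1 (0.95), the factor that drives proteasome genes when proteasomes are impaired.

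Aminoacyl-tRNA synthetases, which charge tRNAs and are Atf4 targets, had 11 of 23 lower interactions and 1 higher (16 lower with library size alone). Their summed levels under iAs overlapped, at 2778 to 2934 CPM in the mutant and 2763 to 3120 in wild type. Without iAs the mutant stood higher, at 1877 to 2186 CPM against 1673 to 1728 in wild type. KARS1, the lysyl-tRNA synthetase, had 289.6, 306 and 291 CPM in treated mutant larvae, 284, 233 and 218 in untreated mutant larvae, 333, 380.3 and 410.1 in treated wild type and 180.4, 175 and 174 in untreated wild type (interaction -0.82, SE 0.12, adjusted p = 7.36e-05). Treated wild type lay above the treated mutant, while without iAs the mutant lay above wild type (0.47, adjusted p = 0.00105). The scaffold gene AIMP1 (ENSDARG00000036894) was higher (0.80).

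Enzymes of serine and one-carbon synthesis rose in wild type and started high in the mutant. PSAT1, of serine synthesis, had 42.4, 35 and 37.6 CPM in treated mutant larvae, 36.7, 34.6 and 42.3 in untreated mutant larvae, 43.1, 53.3 and 53.5 in treated wild type and 19.6, 16.3 and 16.5 in untreated wild type (interaction -1.50, SE 0.15, adjusted p = 9.37e-07). Untreated mutant larvae overlapped with treated ones, and untreated wild type lay below all other libraries. The mitochondrial folate enzyme MTHFD1L had 67.3, 74.7 and 55.1 CPM in treated mutant larvae, 56.4, 58.3 and 44.7 in untreated mutant larvae, 54.4, 61.7 and 69.2 in treated wild type and 17, 10.9 and 18.4 in untreated wild type, with a genotype difference of 1.79 without iAs and an interaction of -1.71. PHGDH had an interaction of -0.77, asparagine synthetase ASNS -0.78 and the mitochondrial serine enzyme SHMT2 -1.18. For all of these except SHMT2, which fell (-0.64), the mutant response was not called. The phosphoethanolamine methyltransferase gene pmt, another user of S-adenosylmethionine, was also higher in the untreated mutant (1.42) and had an interaction of -1.35.

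**Figure D5:**
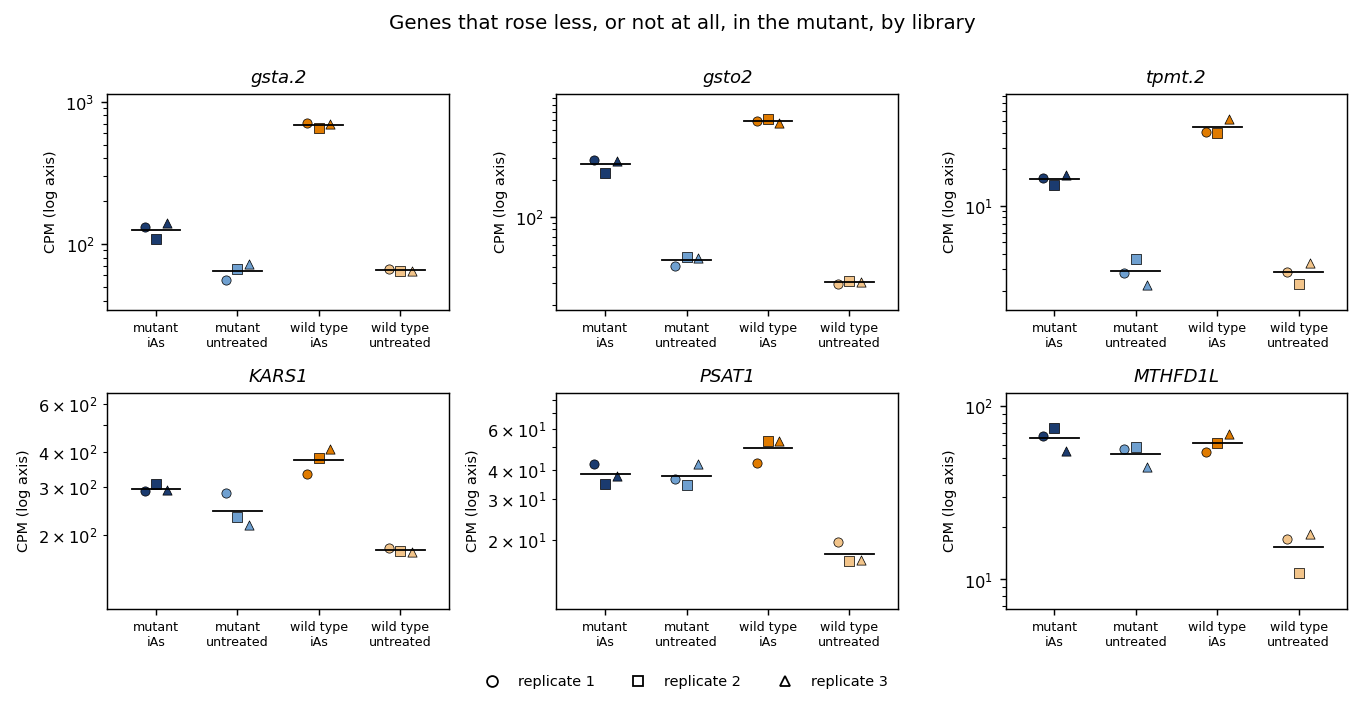
Levels in CPM (log axis) of 6 genes with a lower response in the as3mt mutant than in wild type, in treated and untreated mutant and treated and untreated wild type, with 1 marker per library shaped by replicate and a line at the group mean. For gsta.2, gsto2 and tpmt.2 the treated mutant lies below treated wild type, and for gsto2, KARS1, PSAT1 and MTHFD1L the untreated mutant lies above untreated wild type.

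Among falls that were smaller in the mutant were MIA (-0.63 against -1.28 in wild type) and the water and glycerol channel AQP3 (ENSDARG00000003808, -0.17 against -0.77 in wild type). The chemokine-like gene cxl34b.11 had log2 responses of -0.44 in the mutant and -0.96 in wild type. Smaller falls were the rarer kind, 49 of the 210 genes.

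Genes that carry arsenic in, change it or carry it out gave 12 of 30 lower and 3 higher interactions (median -0.24, and 5 higher without replicate 1 of treated wild type). AS3MT fell in both genotypes and more in the mutant on the log2 scale (interaction -0.83, SE 0.15, adjusted p = 3.68e-04). In CPM the fall was nearly equal in mutant and wild type, with means of 3.28 ± 0.245 in treated and 9.55 ± 0.352 in untreated mutant larvae and 9.81 ± 0.103 in treated and 16.1 ± 1.57 in untreated wild type (SD, n = 3 each). The aquaglyceroporin gene aqp10b, of the family of channels that pass arsenite, fell in the mutant (-2.50), with -0.60 in wild type, not called. Metallothionein MT1X, which binds metal ions through its cysteines, had 3949, 3349 and 3686 CPM in treated mutant larvae, 58.7, 52.2 and 68.6 in untreated mutant larvae, 1974, 1637 and 1734 in treated wild type and 69.6, 67.1 and 68.7 in untreated wild type (interaction 1.23, SE 0.13, adjusted p = 1.68e-06). It rose in both genotypes and the treated mutant libraries stood highest. The metal ion importer SLC39A8 rose less in the mutant (0.57 against 1.84 in wild type, interaction -1.27). In the list of metallothionein, zinc and iron genes as a whole, 6 of 29 were higher and 8 lower.

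The xenobiotic list had 11 of 46 genes higher and 15 lower, with 5 in opposite directions, against 1.36% of all genes. CYP1A1, the classic target of the aryl hydrocarbon receptor, had log2 responses of -2.24 in the mutant and -1.53 in wild type (interaction -0.72, SE 0.11, adjusted p = 1.42e-04). Endoplasmic reticulum folding genes had 4 of 42 higher (9.52%) and 9 lower (21.4%), near the shares of all genes (12.3% and 17.9%). There were 14 lower without replicate 3 of the untreated mutant, and 2 higher without replicate 1 or 3 of untreated wild type or replicate 2 of the untreated mutant. The thiol oxidase ERO1A was the leading gene of the list that rose more in the mutant (3.08 against 1.28 in wild type), and the collagen chaperone SERPINH1 (ENSDARG00000019949) had an interaction of 1.72.

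Oxidative phosphorylation and ribosomal protein genes had few called interactions. Of 52 nuclear genes of oxidative phosphorylation, 3 were higher and 1 lower (9 higher without replicate 3 of the untreated mutant, 1 higher without replicate 1 of untreated wild type, and 0 lower without any 1 replicate of untreated wild type, replicate 1 or 3 of treated wild type, replicate 2 of the untreated mutant or replicate 1 of the treated mutant), among them NDUFA4 (0.48). Of 72 cytosolic ribosomal protein genes, 1 was higher and 0 were lower, but 37 were higher without replicate 3 of the untreated mutant. Collagens, cartilage and bone genes fell in both genotypes, 57 of 69 in the mutant and 59 in wild type, with 15 lower interactions and 7 higher ones. The shares of the list with a called interaction (21.7% lower and 10.1% higher) were near those of all genes (17.9% and 12.3%). The fibrillar collagen gene col5a2b was at -1.06 and the bone matrix gene spp1 at -0.90. Endothelial genes had 9 of 37 lower and 1 higher (2 higher without replicate 1 or 2 of treated wild type, replicate 3 of the untreated mutant or replicate 1 of the treated mutant). The gene plvapa, for a protein of vessel fenestrae, was at -0.98.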

How the data were processed

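The 12 libraries were RNA-seq of pools of 10 whole larvae. The values are raw read counts per Ensembl gene as deposited by the authors, in 1 file per library with 32105 genes. Per the submitters' processing notes, reads passed through FastQC 0.11.5 and Trimmomatic 0.36, and the build was GRCz10. How reads were aligned, counted and assigned by strand is not given in the sources used here, so reads of near-identical genes (hsp70, vitellogenin, tandem glutathione transferases) or of overlapping and antisense genes may have been split, dropped or shared. Groups come from the sample titles.

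The filterByExpr filter (minimum count 10) left 23096 genes. The model was edgeR 4.0.16's quasi-likelihood fit (glmQLFit, glmQLFTest) of the 4 groups with TMM scaling. P-values were adjusted by Benjamini and Hochberg's method over all genes of a contrast, and a gene is called below 0.05. SE stands for the standard error, on the log2 scale. CPM come from edgeR after scaling. A response class needs the interaction and the single-genotype responses called. At these totals, counting error is small beside the spread between libraries for genes with many counts, but not where a group held few. The lowest counts in treated mutant larvae were 1 for ahsg2, 6 for klf1, 7 for nr5a5 and 9 for SLC10A1. They were 12 for ankrd33ab, 13 for guca1d and 16 for both ABCB11 and slc19a3a, so the sizes of these interactions are imprecise. The same holds for nr0b2b, olig1 and gata1a, which also had few counts in treated mutant larvae. Alternatives were other scalings, filters, DESeq2 1.42.0, a minimum fold of 1.5, a block for the replicate number, leaving out each library, and the linear CPM scale. The code was tested on simulated counts. R was 4.3.3, limma 3.58.1, Python 3.11.15, pandas 2.3.3 and matplotlib 3.10.9.

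A table of symbols named 26269 of the 32105 IDs. It gives many zebrafish genes a human-style symbol and 1632 symbols to more than 1 ID, for which the ID is printed. Of 2188 entries in the 49 lists, 2032 matched a gene, and 91 genes tested are in more than 1 list. For 431 entries the match was a human-style symbol without the letter that tells gene copies apart. Such an entry takes every ID of its symbol, so a list may hold a copy other than the one meant. SLC4A1 (ENSDARG00000012881) is on the red cell and ionocyte lists, and NDRG1 (ENSDARG00000010420) on the hypoxia and photoreceptor lists. The genes and lists were chosen with earlier results of these data known, so list counts are descriptions and not independent evidence. The naming rule took AS3MT, HMOX1, MT1X, hsp70l, ATF3, fabp10a and CYP1A1, the 10 largest interactions of each sign where the mean level reached 5 CPM, the 5 largest of each sign among opposite responses (at least 2 CPM) and among smaller responses (at least 5 CPM), and up to 2 called members per list, which named 117 genes. A further 36 genes were chosen after their values were seen. A few genes, some of which meet the rule, are not reported here. No sequences are shown.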

Additional observations from a re-analysis of the deposited data

Results flagged for a closer look

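The responses of the genotypes differed by the interaction test for 2842 genes called higher and 4142 called lower, and this test of the difference is what brought each gene here. Named genes whose mutant response was higher, with the log2 interaction, were CARTPT (ENSDARG00000035852, a neuropeptide precursor) at 3.93, vtg1 (a yolk protein precursor) at 3.85, FOS at 3.40, scpp9 at 3.03, mmp13a at 2.97, hsp70l at 2.85, SLC25A38 (ENSDARG00000059805, the mitochondrial glycine carrier of haem synthesis) at 2.77, FOSL1 at 2.68, JDP2 (ENSDARG00000020133) at 2.66, olmf4l1 at 2.51, NDRG1 (ENSDARG00000010420) at 2.51, anxa1b at 2.45, apoa4a at 2.27, cyp1c2 at 1.78 and hhla2a.2 at 1.71.

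Named genes whose mutant response was lower were cdh29 at -5.08, cpo at -3.99, ahsg2 at -3.69, ABCB11 at -3.69, slc19a3a at -3.63, SLC4A1 (ENSDARG00000012881) at -3.24, ankrd33ab at -3.22, nr5a5 at -3.21, apoa4b.2 at -2.95, SDR42E2 at -2.91 and tubb1 at -2.84.

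Of these, SLC25A38 and olmf4l1 also differed between genotypes without iAs (-1.31 and 1.15 as log2 mutant over wild type). CARTPT had 21.7, 19.4 and 19.3 CPM in treated mutant larvae, 0.807, 1.54 and 0.763 in untreated mutant larvae, 1.14, 1.83 and 1.51 in treated wild type and 1.34, 0.851 and 1.43 in untreated wild type (SE of the interaction 0.34, adjusted p = 2.72e-07 by edgeR's quasi-likelihood test with Benjamini-Hochberg adjustment). All 3 treated mutant libraries stood above the other 9. The vitellogenin vtg1 had 4.15, 20.7 and 44.1 CPM in treated mutant larvae, 1.41, 1.56 and 10.5 in untreated mutant larvae, 1.14, 1.74 and 1.69 in treated wild type and 8.36, 1.88 and 2.68 in untreated wild type. Its libraries scatter within the groups, and its call was lost without replicate 1 of untreated wild type (2.90, adjusted p = 0.0795), while the value was 5.43 without replicate 3 of the untreated mutant and 2.96 without replicate 3 of the treated mutant.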

How the results depend on the processing

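Whole larvae, 3 libraries per group and 1 mutant line on another background than wild type limit what the interaction can show, and low-count genes are the least precise. Counts of called genes held within 1.5 times their value under every scaling, both filters, DESeq2's Wald test and each library left out. A threshold of 1.5-fold (glmTreat) left 404 higher and 809 lower, 117 in opposite directions, 649 larger and 18 smaller in the mutant with both responses called, 388 called in the mutant alone and 41 in wild type alone; it tests for a larger difference. Leaving out 1 library gave 2313 to 3264 higher and 3557 to 4001 lower, 228 to 333 opposite, 2368 to 3211 larger, 154 to 223 smaller, 2288 to 2946 in the mutant alone and 400 to 621 in wild type alone.

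The titles number replicates with a suffix cl, and the labels do not say whether it marks a shared clutch. The deviations of same-numbered libraries from their group means correlated between -0.028 and 0.069 over 18 pairs, with 0 above 0.1, so the libraries were not treated as paired. With the replicate block, 2741 were higher and 4058 lower. Of 153 named genes, 153 held their call with DESeq2 size factors, 149 with library size alone, 151 with DESeq2's test, 152 without a filter, 151 with the block and 107 under the fold threshold. With 1 library left out, 147 to 151 held it. Calls of TBX5, MNX1, TMEM37, MSMO1, rplp2 and tnnc1a were each lost without any of several libraries, and that of cox6b1 without replicate 1 of untreated wild type (adjusted p = 0.0513).

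On the linear CPM scale, a difference of responses added after seeing the data for all called genes, 65 of 6984 (0.931%) changed sign, 59 of them lower on the log2 scale. Among named genes these were AS3MT (0.0079 CPM), LCT (1.42 CPM) and ahsg2 (14.4 CPM). The cause was not tested.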

Other observations

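Hormone and neuropeptide genes held some of the larger rises seen in the mutant alone, although their lists as a whole leaned neither way. Of 33 appetite and stress neuropeptide genes, 5 had higher (15.2%) and 4 lower interactions (12.1%), where the shares of all genes were 12.3% and 17.9%. The neuropeptide precursor gene CARTPT (ENSDARG00000035852, interaction 3.93) is not on this list and is not counted there. POMC, the precursor of the stress hormone ACTH and of melanocyte-stimulating hormone, had 4.88, 5.92 and 6.42 CPM in treated mutant larvae, 1.31, 1.13 and 0.904 in untreated mutant larvae, 1.44, 0.926 and 1.30 in treated wild type and 0.808, 1.24 and 0.939 in untreated wild type (interaction 2.08, SE 0.33, adjusted p = 1.47e-04 by edgeR's quasi-likelihood test with Benjamini-Hochberg adjustment). Its treated mutant libraries were above all others. The melanin-concentrating hormone gene pmchl went the other way (-2.13). Of 36 thyroid, growth hormone and pituitary genes, 8 were higher and 8 lower (5 lower without replicate 3 of the treated mutant). Prolactin prl was at 2.35, and its rise was called in both genotypes (2.91 in the mutant and 0.57 in wild type). In the endocrine pancreas list, 5 of 22 were higher and 7 lower, and glucagon GCG was at 1.43. The higher count was 1 to 3 without any 1 library other than replicate 3 of the untreated mutant or replicate 2 of the treated mutant.

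For the lists that follow, the shares of all genes were 12.3% called higher and 17.9% called lower. Pigment cell genes had 17 of 46 lower (37.0%) and 7 higher interactions (15.2%), and pronephros genes 14 of 42 higher (33.3%) and 9 lower (21.4%). In the kidney, the sulfate transporter SLC13A1 rose in the mutant (1.59, with 0.10, not called, in wild type), and the endocytic receptor gene lrp2b fell further there (-3.46 against -2.08 in wild type). Circadian genes had 14 of 49 higher (28.6%) and 11 lower (22.4%), with cry4 at 0.98 and nfil3-5 at 1.27. Sarcomere genes had 18 of 84 higher (21.4%) and 14 lower (16.7%), with mybpc2b at 1.10 and the calcium buffer gene pvalb3 at -1.58. Cardiac genes had 5 of 25 higher (20.0%) and 6 lower (24.0%). The higher count was 2 without replicate 2 of untreated wild type and 3 without replicate 1 or 2 of treated wild type, replicate 2 of the untreated mutant or replicate 3 of the treated mutant. Of 18 vitellogenin and oestrogen response genes 6 were higher and 1 lower, but 0 were higher without replicate 1 of untreated wild type, and vtg2 (5.17) lost its call there (3.71, adjusted p = 0.0897); without 1 other library vtg2 lay between 4.19 (replicate 3 of the treated mutant) and 7.26 (replicate 3 of the untreated mutant).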
